A study of Arabidopsis thaliana with 8 samples.

Results

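The genes described here are 6 Arabidopsis loci linked to the plant hormone salicylic acid (SA) or to the pathogenesis-related (PR) proteins it induces. They are AT4G33720, AT1G20030, AT1G13470, AT3G48640, AT1G76960 and SAG101 (AT5G14930), each read by a single probe set among the 22746 on the array that are not controls, of which 13513 are paired with 1 gene. They were picked with their difference between the accessions already known, so that difference is given below as a description and carries no test. Transcripts were measured in whole plants of the accession Cal-0, which the labels call a calcicole (lime-loving), and of Col-4, labelled a non-calcicole, with 4 arrays each. All plants were at developmental stage 3.90 and grew in sand with daily water at 23 degrees Celsius, on 0.5 times Long Ashton nutrients with calcium chloride at 1 mM. Seeds had been stratified for 48 hours at 4 degrees Celsius. The labels gave humidity as 34 and light as 160 for every sample. No group was infected or given SA, and neither accession was grown at another calcium dose, so the comparison concerns the resting plants of each.

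SA accumulates in plants attacked by pathogens that feed on living tissue, and its receptors then switch on a large set of defence genes. Among their products are the PR proteins, secreted proteins that include the PR1 family and the thaumatin-like proteins, the family of PR5. SAG101 encodes a lipase-like protein that pairs with EDS1 and passes on signals from one class of intracellular immune receptors, upstream of and alongside SA. AT4G33720 belongs to the PR1 family and AT1G20030 to the thaumatin-like proteins. The products of AT1G13470, AT3G48640 and AT1G76960 have no role that can be stated here. The classical markers PR1, PR2 and PR5 were not analysed here.

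The values are MAS5 signals, the brightness of a probe set after subtraction of its mismatch probes and scaling of each array to a common level, with array medians between 44.0 and 50.1. Signals near 0 carry little information, and 27 control probe sets for Bacillus genes, which have no plant transcript to bind, gave a measure of that floor. Their 216 values had a median of 3.2, a 95th percentile of 13.2 and a maximum of 40.8, and 4 of them exceeded 16. Differences below are on the scale of log2(signal + 16), Cal-0 minus Col-4, so a positive value is higher in Cal-0. The labels number the replicates without saying that they came from separate plants, so errors and p-values measure the spread between these arrays, which may be technical. As for the labelled tissue, the leaf genes LHCB4.1 (a light-harvesting protein) and RCA (Rubisco activase) read 5744 ± 1019 and 5130 ± 683 in Cal-0, and the root gene PYK10 read 788 ± 330 (SD, n = 4 arrays). In Col-4 they read 6682 ± 1885, 5200 ± 992 and 605 ± 230. These were the measured members of the lists of leaf and photosynthesis markers (2 of 8) and of root markers (1 of 8), and none of the 3 passed the test between accessions. No member of the list of flower and seed markers was analysed here. Here and below, a listed gene counted as measured where the annotation paired a probe set with it alone.

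Of the 6 genes, 4 were higher in Cal-0 and 2 in Col-4. AT4G33720 gave clear signals in both accessions, whereas AT3G48640 and AT1G76960 were at the floor in one accession and well above it in the other, in opposite directions. AT1G13470 was at or near the floor in Col-4, and AT1G20030 was low in Cal-0. SAG101 was dim everywhere and differed little. In 5 of the 6 genes the accessions did not overlap, and 10.3% of all tested probe sets had no overlap. The same 5 passed limma at an adjusted p under 0.05, as did 4.29% of all tested probe sets. When replicate numbers entered the fit as a block, 8.57% of all probe sets passed, and 5 of the 6 genes again did. A block for the 2 sets of arrays described below let 7.22% of all probe sets and 5 of the 6 genes pass. Since the genes were chosen on this contrast, nothing is read from these counts. In RNA from whole plants, fewer cells of an expressing type and less RNA per cell cannot be told apart. Whether the probe sets bind the transcripts of both accessions equally well was not tested, and low signals are read with that limit.

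SAG101, the signalling component, had signals of 34.2, 36.6, 42.4 and 29.6 in Cal-0 replicates 1 to 4. In Col-4 it was at 30.4, 24.8, 26.9 and 18.5. The accessions overlapped, Col-4 replicate 1 lying above Cal-0 replicate 4. All 4 Cal-0 arrays and 3 of the 4 Col-4 arrays stood above the highest Bacillus control of their own array. The Cal-0 mean was 35.7 ± 5.33 and the Col-4 mean 25.2 ± 5.00 (SD, n = 4 each), a ratio of 1.42, and the difference was 0.33 with a limma standard error of 0.14.

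AT4G33720, the PR1-family gene, was at 926.5, 901.4, 1237.4 and 610.7 in the Cal-0 replicates. In Col-4 it was at 320.6, 152.9, 185.2 and 117.5. Every array stood far above its Bacillus controls, and the lowest Cal-0 array was still above the highest Col-4 array. The mean of 919 ± 256 in Cal-0 was 4.74 times that of 194 ± 88.8 in Col-4, a difference of 2.20 with a standard error of 0.28. Because both accessions were bright, the choice of the added constant mattered little, the difference being 2.30 with 1 and 2.01 with 50.

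AT1G20030, the thaumatin-like gene, ran the other way. Its Cal-0 signals were 6.7, 6.6, 28.5 and 57.8, and its Col-4 signals 183.6, 144.1, 237.7 and 270.2. Col-4 was above its Bacillus controls on all 4 arrays, but Cal-0 only on replicates 3 and 4. The Cal-0 values were thus split, with replicates 1 and 2 at the floor, and the SD of 24.2 was nearly as large as the mean of 24.9. The Col-4 mean was 209 ± 56.1, and the difference was -2.61 with a standard error of 0.35. It ran from -3.52 with 1 added to -1.82 with 50.

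AT1G13470 read 158.7, 96.5, 160.0 and 154.1 in Cal-0. In Col-4 it read 1.1, 12.7, 11.1 and 37.2. Cal-0 replicate 2 was the low array of its group, and Col-4 replicate 4 was the only Col-4 array above its highest Bacillus control, which was at 14.4. The means of 142 ± 30.7 and 15.5 ± 15.3 differed by 2.42, with a standard error of 0.29. With 1 added the difference was 3.71, and with 50 it was 1.57.

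AT3G48640 was the steadiest of the 6 where it was expressed, with 181.3, 157.8, 159.2 and 144.8 in Cal-0, a coefficient of variation of 9.42%. The Col-4 signals were 11.2, 1.7, 9.8 and 1.8, and all 4 were below the highest Bacillus control of their array. The means were 161 ± 15.1 and 6.12 ± 5.08, and the difference of 3.02 had a standard error of 0.17. Since the lower accession was at the floor, the size of the difference depended on the constant, from 4.84 with 1 to 1.91 with 50, while its direction did not.

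AT1G76960 was the mirror image, at the floor in Cal-0 with 1.0, 2.7, 1.9 and 3.5. In Col-4 it reached 246.0, 335.4, 527.1 and 472.0. The Cal-0 signals lay around the medians of the Bacillus controls on the same arrays, which were 2.2, 5.5, 2.6 and 2.2. The Col-4 mean was 395 ± 128 against 2.27 ± 1.07, and the difference was -4.44 (standard error 0.21). With Cal-0 at the floor its size was set by the constant, at -6.92 with 1 added and -3.04 with 50.

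**Figure D1:**
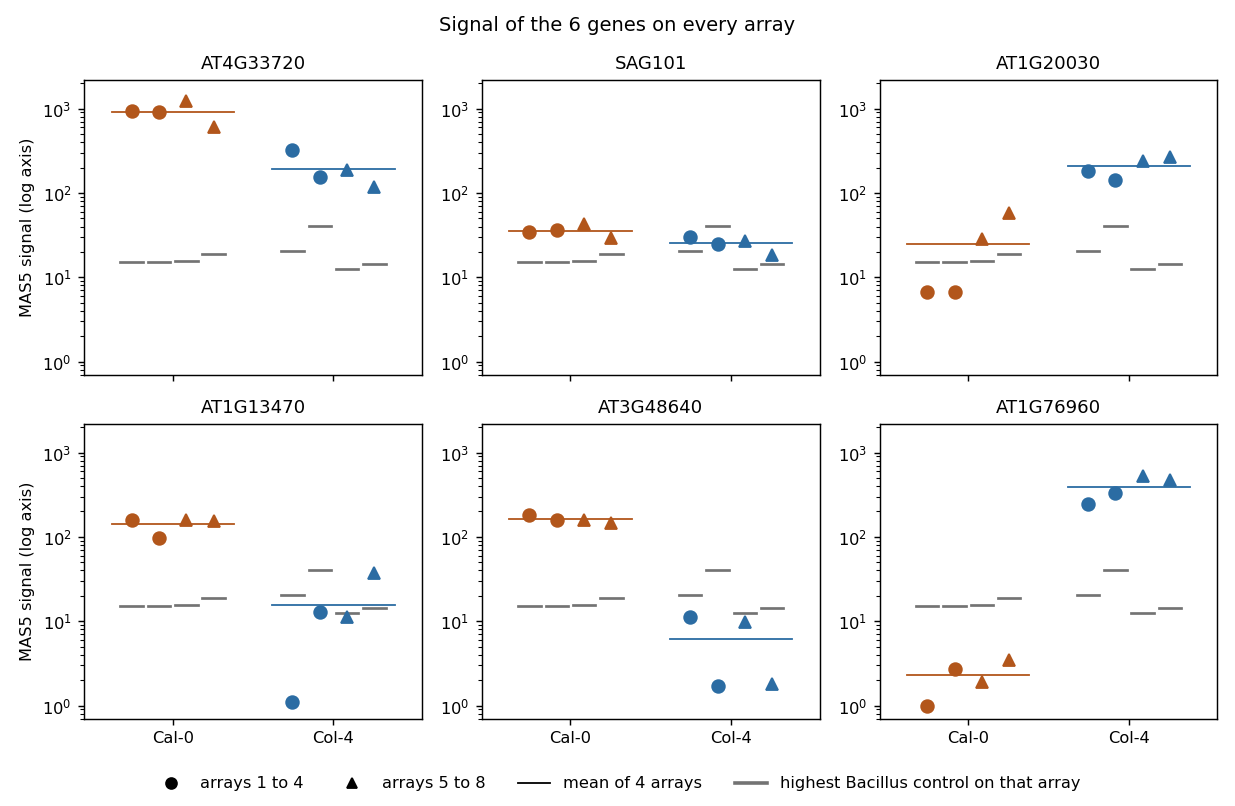
MAS5 signal (log axis) of the 6 genes on each of the 4 Cal-0 and 4 Col-4 arrays, replicates 1 to 4 from left to right, with circles for arrays 1 to 4 and triangles for arrays 5 to 8, a thin line at the group mean and a grey dash at the highest Bacillus control of each array. AT3G48640 in Col-4 and AT1G76960 in Cal-0 lie under the grey dashes on all 4 arrays, and SAG101 is the gene whose accessions overlap.

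All 6 genes had a signal averaging 25 or more across the arrays, the filter for testing, but 4 of them, AT1G20030, AT1G13470, AT3G48640 and AT1G76960, had a mean under 25 in the lower accession and passed only through the higher one. Arrays of the same replicate number gave the same direction in every pair for each of the 6 genes. In the 5 genes without overlap this could not have been otherwise, so only SAG101 could have differed. For AT4G33720, which was bright in both accessions, the pairs differed by 1.49, 2.44, 2.64 and 2.23. Dropping any array left all 6 directions as they were, though only that of SAG101 could have changed. The difference of AT4G33720 lay between 2.01 and 2.46 and that of SAG101 between 0.25 and 0.39.

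**Figure D2:**
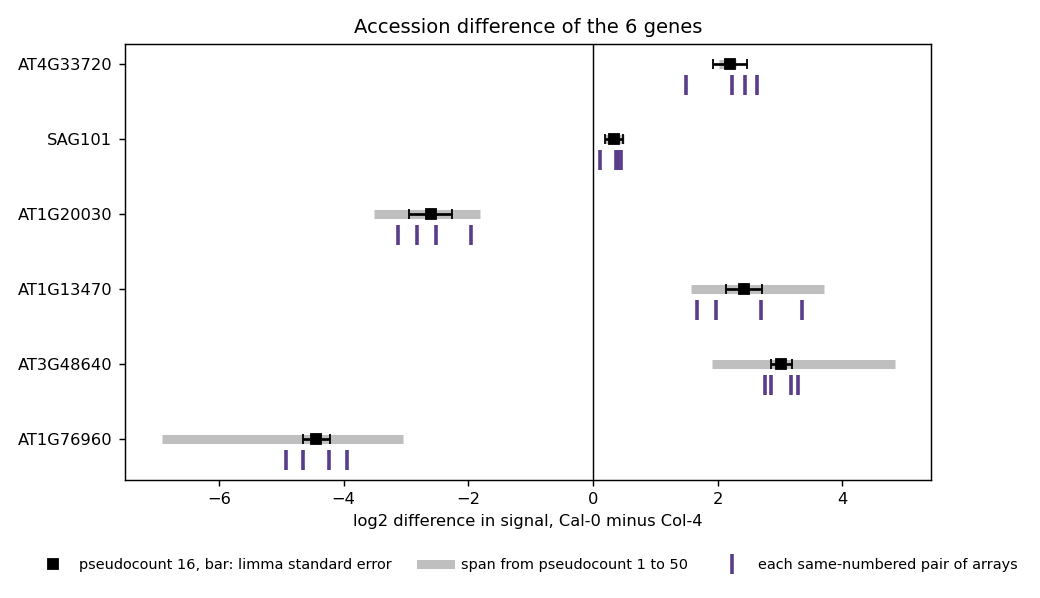
Cal-0 minus Col-4 difference of each of the 6 genes on the log2 scale, with black squares for an added constant of 16 (bars: limma standard error), grey bands for the span between constants of 1 and 50, and purple ticks for the same-numbered pairs of arrays. The grey band is narrow for AT4G33720, from 2.01 to 2.30, and wide for AT1G76960, from -6.92 to -3.04.

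Within an accession, AT4G33720 and SAG101 were high and low on nearly the same arrays. In Cal-0 both were highest on replicate 3 and lowest on replicate 4, and in Col-4 both followed the order of replicates 1, 3, 2 and 4 from high to low. The deviations of the 8 arrays from their accession means correlated at 0.933 (Pearson) between the pair, the highest among the 15 pairs of the 6 genes, which ranged down to -0.713 for SAG101 and AT1G13470. SAG101 ranked as number 12 among 8269 single-gene probe sets in its likeness to AT4G33720 by this measure. In the reverse comparison, AT4G33720 ranked as number 21 in its likeness to SAG101. SAG101 was dim throughout, and its Col-4 replicate 2, at 24.8, lay under the highest Bacillus control of that array, at 40.8. AT3G48640 went with AT4G33720 at 0.749, and AT1G13470 went against it at -0.683. In Col-4, however, AT3G48640 exceeded its highest Bacillus control on none of the arrays and AT1G13470 on only 1 of 4. The order of these 2 genes there carries little information, and so do the correlations that use it. These correlations rest on 8 arrays that share their scaling and the differences between the sets of arrays described next, and they are given as descriptions.

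The titles number the arrays 1 to 8, and arrays 1 to 4 and 5 to 8 each hold 2 of either accession. This division was not used to choose the genes, so it could be tested. AT1G20030 rose from arrays 1 to 4 to arrays 5 to 8 in both accessions, from a mean signal of 6.65 to 43.2 in Cal-0 and from 164 to 254 in Col-4, with all later arrays above all earlier ones of the same accession. Its difference between the sets was 0.97 with a standard error of 0.17, and it passed (limma adjusted p = 0.0221), as did 6.81% of all tested probe sets. Because the earlier Cal-0 arrays were at the floor, its size depended on the constant, at 1.54 with 1 added and 0.61 with 50, and it passed with both. The other 5 genes did not pass. AT1G76960 went from 291 to 500 in Col-4 and stayed at the floor in Cal-0, a set difference of 0.42 (standard error 0.13, limma adjusted p = 0.0852), and AT1G13470 had a difference of 0.54 (standard error 0.25, limma adjusted p = 0.194), or 1.17 with 1 added and 0.31 with 50. SAG101, AT3G48640 and AT4G33720 stood at -0.09, -0.09 and -0.31, with standard errors of 0.14, 0.17 and 0.27.

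Measures of RNA and labelling moved with the same division. The 25S ribosomal RNA control read 413 to 633 on arrays 1 to 4 and 1921 to 7476 on arrays 5 to 8. For the actin and GAPDH controls, the 3′ signal exceeded the 5′ signal by 0.927 to 1.70 (log2) on the earlier arrays and by 1.66 to 2.39 on the later ones. On the earlier arrays this excess also parted the accessions, at 1.70 and 1.52 in Cal-0 and 0.955 and 0.927 in Col-4. On the later arrays the accessions overlapped in it. With that excess as a covariate the set difference of AT1G20030 was 0.73 (standard error 0.36, limma adjusted p = 0.433), in a fit where 0 of 15165 probe sets passed with limma and 1964 had an unadjusted p under 0.05. Its call was also lost without any of the 4 earlier arrays in turn, although the difference stayed at 0.97, 0.96, 1.05 and 0.89, at limma adjusted p of 0.0679 without Cal-0 replicate 1, 0.0935 without Cal-0 replicate 2, 0.0775 without Col-4 replicate 1 and 0.0710 without Col-4 replicate 2.

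The accession difference had the same sign in both sets for all 6 genes, fixed in advance by non-overlap for all but SAG101. It was -2.98 and -2.23 for AT1G20030, -4.09 and -4.78 for AT1G76960, 1.96 and 2.44 for AT4G33720, and 3.08 and 2.97 for AT3G48640. For AT1G13470 it was 2.66 and 2.19, and for SAG101 0.24 and 0.42. The change of that difference between the sets passed for none of the 6 (limma adjusted p = 0.999 for each), nor for any of the 15165 probe sets with limma, among which 607 had an unadjusted p under 0.05. AT1G76960 had the smallest unadjusted limma p of the 6, at 0.0269, for a change of -0.70 (standard error 0.27), which was -0.38 (standard error 0.48) with 1 added. Since Cal-0 was at the floor in both sets, this change rests on the Col-4 arrays.

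**Figure D3:**
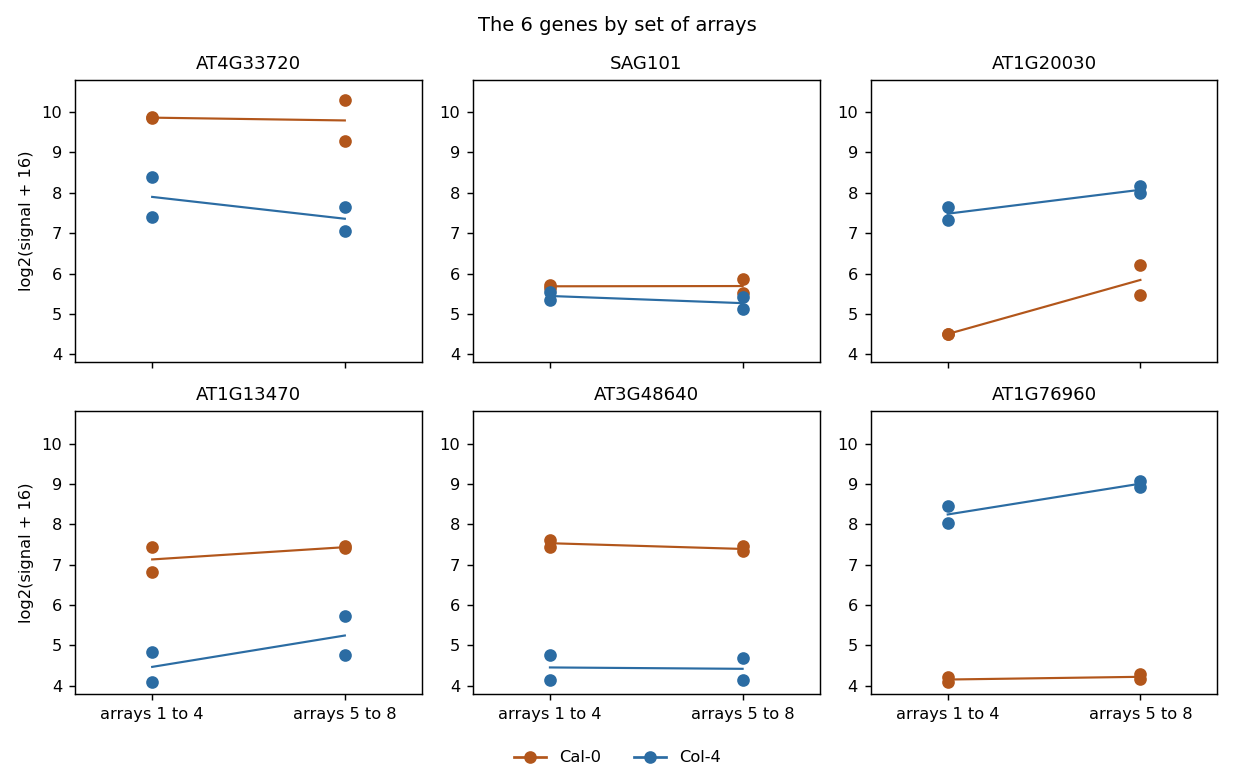
The 6 genes as log2(signal + 16) on arrays 1 to 4 and arrays 5 to 8, with points for single arrays (orange Cal-0, blue Col-4) and lines joining the means of 2 arrays. AT1G20030 slopes upward in both accessions, by 0.97 on average, and AT3G48640 has a set difference of -0.09.

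The other PR1-family genes gave 1 call, and which gene that was changed with the added constant. Of 22 family loci listed, 19 were measured, and 9 members other than AT4G33720 were bright enough to test. Of these, 1 rose in Cal-0, 0 fell and 8 did not pass in limma, where 1.54% of all probe sets passed as higher and 2.75% as lower. An unadjusted p under 0.05 was found for 6 of the 9, and for 15.5% of all tested probe sets. Their median difference was 0.44, with 6 positive and 3 negative values, beside 0.03 over all tested probe sets. Of the positive ones, AT1G50050, AT2G19970 and AT4G33710 met the filter of 25 only through Cal-0 (Col-4 means of 15.3, 20.55 and 20.2). The negative AT4G25780 met it only through Col-4 (Cal-0 mean 21.25). The median, the signs and the unadjusted count thus rest partly on genes let in through their higher accession, and nothing is read from them. AT1G50050 was the member that rose, with signals between 32.8 and 38.5 on the Cal-0 arrays and between 6.7 and 22.4 on the Col-4 arrays, without overlap. Its difference was 0.73 with a standard error of 0.16 (limma adjusted p = 0.0268), but at a mean signal of 25.3 it entered the test only through Cal-0, where it is high, so the filter favoured this direction. The call held in 1 of the 8 fits that leave out an array, the one without Col-4 replicate 4, and was lost with 50 added (difference 0.39, limma adjusted p = 0.0506) and with an intensity trend (limma adjusted p = 0.0530).

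AT5G66590, another PR1-family gene, leaned the opposite way, with 63.2, 69.1, 29.5 and 58.3 in Cal-0 and 191.8, 159.8, 76.5 and 104.5 in Col-4. The accessions did not overlap, and the difference of -1.04 (standard error 0.27) had a limma adjusted p of 0.0522. With 50 added it passed as the family's only call (difference -0.77, limma adjusted p = 0.0492). AT5G26130 was at 46.9 ± 5.56 and 30.6 ± 7.04 without passing (difference 0.44, limma adjusted p = 0.147). In the fit blocked on replicate, 2 of the 9 members rose and 1 fell, where 3.61% of all probe sets passed as higher and 4.95% as lower. The one that fell was AT5G66590 (limma adjusted p = 0.00216), and those that rose were AT1G50050 and AT4G25790, the latter named after its values were seen (difference 0.63, limma adjusted p = 0.0402). The 9 family members too dim to test had mean signals between 1.41 and 20.5.

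The other thaumatin-like genes gave no call. Of 24 loci listed, 20 were measured and 11 others were tested, and in limma 0 rose and 0 fell, with 2 of the 11 at an unadjusted p under 0.05, beside the 15.5% of all probe sets. Their differences lay between -0.38 and 0.79, with a median of -0.01, 5 positive and 6 negative. OSM34, an osmotin-like member of the family, had the smallest p, at 770.3, 608.1, 764.5 and 417.0 in Cal-0 and 536.8, 337.9, 355.8 and 237.6 in Col-4. In both accessions its replicate 4 was the lowest, and the accessions overlapped. Its difference of 0.79 (standard error 0.25, limma adjusted p = 0.115) passed in the fit blocked on replicate (limma adjusted p = 0.00632), as the family's only call there. AT4G38660 followed with a Cal-0 mean of 71.4 ± 10.2 and a Col-4 mean of 97.4 ± 18.1 without passing (limma adjusted p = 0.275).

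**Figure D4:**
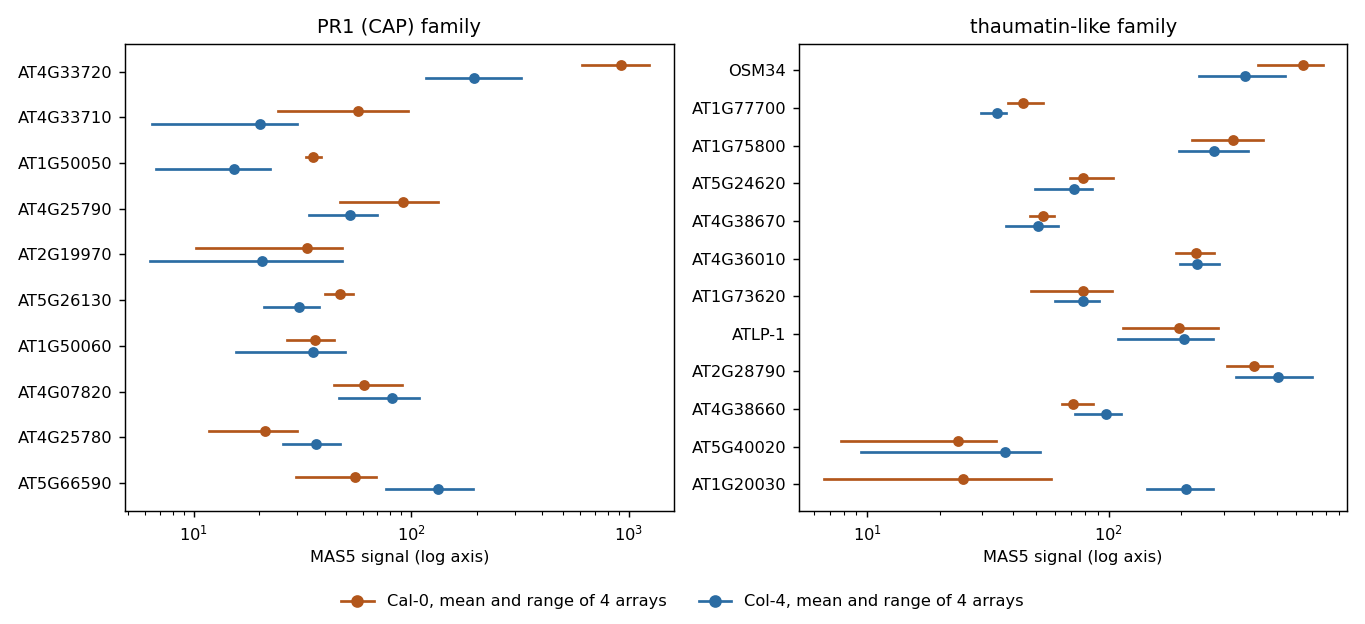
MAS5 signal (log axis) of the tested members of the PR1 family (left) and of the thaumatin-like family (right), with the mean and the range of the 4 arrays in Cal-0 (orange) and Col-4 (blue), sorted by the difference between accessions. AT4G33720 differs by 2.20 and AT1G20030 by -2.61, and the other members shown by -1.04 to 0.92 and by -0.38 to 0.79.

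Few further genes of the SA pathway could be analysed. Of 50 loci listed for SA synthesis and signalling, 7 were measured, and of the 3 tested besides SAG101, 0 rose, 1 fell in Cal-0 and 2 did not pass. The gene that fell was AT5G52810, at 30.7, 26.5, 28.8 and 31.2 in Cal-0 and 98.6, 92.4, 104.3 and 110.5 in Col-4. Its link to SA rests on this list alone and was not tested. The values were tight and far apart, and the difference of -1.37 (standard error 0.12, limma adjusted p = 6.26e-05) held in all 8 fits that leave out an array. AT3G48080 (difference 0.15) and WRKY53, a transcription factor gene of defence and senescence (difference -0.11), did not pass. UGT74F1 and UGT76B1, which encode glucosyltransferases that conjugate SA, and BSMT1, whose product methylates it, were too dim to test, at 6.47 ± 3.90, 20.9 ± 3.36 and 12.9 ± 3.90 in Cal-0 and 6.62 ± 5.37, 17.4 ± 5.48 and 8.45 ± 6.80 in Col-4.

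Of 17 SA-responsive loci listed, 5 were measured, 3 of them among the 6 genes. Of the other 2, 0 rose and 0 fell in limma, and 0 had an unadjusted p under 0.05. GRX480, a glutaredoxin gene induced by SA, was at 43.9, 57.6, 35.3 and 21.1 in Cal-0 and 28.1, 21.4, 18.4 and 31.5 in Col-4, with overlap (difference 0.41, limma adjusted p = 0.38). AT3G22240 was at 5135 ± 621 and 5751 ± 2404 (difference -0.09, limma adjusted p = 0.919), Col-4 replicate 4 being its brightest array at 9319.8.

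Other defence and senescence genes were read in the same way. Of 12 measured chitinase, glucanase and inhibitor genes of the PR classes, 10 were tested and 0 rose or fell in limma, with 1 at an unadjusted p under 0.05, the median difference being 0.02. The chitinase gene CHI had the smallest p, with a Cal-0 mean of 165 ± 36.1 and a Col-4 mean of 101 ± 30.8 (difference 0.66, limma adjusted p = 0.156), and AT1G02360 followed with 0.42 (limma adjusted p = 0.34). Jasmonate governs a defence branch that often opposes that of SA. Of its 3 tested genes, THI2.1, a thionin gene, fell in Cal-0 from 224.2, 134.2, 102.8 and 48.4 in Col-4 to 21.4, 30.2, 41.6 and 26.9 (means 30.0 ± 8.53 in Cal-0 against 127 ± 73.6, limma adjusted p = 0.0214). Its call was lost without Cal-0 replicate 1, Cal-0 replicate 2 or Col-4 replicate 2 (differences of -1.41, -1.51 and -1.43, limma adjusted p of 0.0758, 0.0542 and 0.0709) and without the filter on low signals (limma adjusted p = 0.0605). The defensin genes PDF1.2 and PDF1.2b did not pass, with differences of -0.84 and -0.36.

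Of the senescence list, 3 genes were tested besides SAG101, and 0 rose and 0 fell in limma, with 2 of the 3 at an unadjusted p under 0.05, beside 15.5% of all probe sets. WRKY6, a transcription factor gene of senescence and defence, was at 45.2, 42.4, 36.5 and 31.3 in Cal-0 and 13.6, 24.5, 15.9 and 26.2 in Col-4, without overlap. Its difference of 0.61 (standard error 0.16) had a limma adjusted p of 0.0522, and it passed in the fit blocked on replicate (limma adjusted p = 0.0406). With a Col-4 mean of 20.05, WRKY6 met the filter of 25 only through Cal-0, where it is high, so the filter favoured this direction. SAG29, which encodes a sugar transporter, ran the other way at 15.8 ± 10.3 and 52.5 ± 32.6 without passing (difference -1.04, limma adjusted p = 0.146). It met the filter only through Col-4.

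None of the nearest measured genes around the 6 passed the test. The nearest one on either side was read for each, 12 neighbours in all, of which 9 were tested and 0 passed in limma (1 at an unadjusted p under 0.05, smallest limma adjusted p 0.227). They lay 1 to 8 genes away in the annotation order. Where a neighbour was not directly adjacent, the genes between were not read, as for both sides of AT1G20030 (TUB5 at 4 and AT1G20070 at 6 genes). For 8 of these 9 the difference lay between -0.28 and 0.21. The exception was AT4G33710, the PR1-family gene directly beside AT4G33720, at 24.4, 25.1, 96.4 and 82.4 in Cal-0 and 15.3, 30.0, 29.0 and 6.4 in Col-4. It was high only on Cal-0 replicates 3 and 4, and its difference of 0.92 (standard error 0.36) did not pass. With a Col-4 mean of 20.2, AT4G33710 met the filter of 25 only through Cal-0. AT4G33730, the PR1-family gene on the other side, was too dim to test at 12.9 ± 6.86 and 12.9 ± 8.46. AT3G48650, a transcribed pseudogene beside AT3G48640, was at the floor in both accessions (1.28 ± 0.71 and 2.00 ± 0.44), and so was AT1G13540, the measured gene nearest to AT1G13470 on one side and 1 of 2 measured in the list of 9 loci around it (3.38 ± 2.62 and 2.60 ± 4.47). PRAF1 and AT1G76970, on either side of AT1G76960 at 4 and 2 genes away, differed by -0.03 and 0.21.

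Genes whose signal ran most like each of the 6 over the 8 arrays were found by Pearson's r of log2(signal + 16), among single-gene probe sets with a mean of at least 100 in the higher accession. For AT1G76960 the closest was AT5G52810 (r = 0.993), the SA-list gene described above, and then AT1G23130 (r = 0.988). For AT3G48640 they were AT4G26870 (r = 0.989) and MPC (r = 0.984), the latter with a Cal-0 mean of 450 ± 48.2 and a Col-4 mean of 39.0 ± 7.79. For AT1G13470 they were AT1G02300 and AT3G60450 (r = 0.983 and 0.979), and for AT1G20030 they were AT2G46220 and PGL34 (r = 0.987 and 0.986). AT4G33720 ran closest to AT3G55960 and AT3G27210 (r = 0.972 and 0.972), and SAG101 to AT1G18210 and AT2G39020 (r = 0.961 and 0.957). The arrays share the division by accession, so any pair of genes with a large accession difference in the same direction scores high by this measure. For AT1G76960, 116 of 3528 candidates had an r above 0.9, and for SAG101, 21 of 3529.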

How the data were processed

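The deposited values are intensity signals of Affymetrix ATH1 arrays, summarised with MAS5 per the submitters' processing notes, 1 array per sample, with no pooling stated. The mean signal of each array, trimmed by 2% at either end, was 100.01 on every array, so the arrays carried a common scaling. No 2 arrays were identical. Gene names came from GEO's platform annotation, which paired 13513 probe sets with 1 gene. The 503 probe sets with several genes were left unnamed, and the rest had no gene there. A listed gene that was not measured may therefore still have a probe set on the array.

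Signals were taken as log2(signal + 16). Probe sets averaging 25 or more over the arrays (15165) were fitted with limma 3.58.1 in R 4.3.3 (lmFit and eBayes, two-sided, Benjamini-Hochberg adjusted p under 0.05), and 7581 were left out. Standard errors of differences are those of limma. Further fits contrasted the sets of arrays and the accession difference between them. The number of arrays limits the precision.

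The 6 genes and the 11 gene lists were chosen with earlier results of these data known. Named were the 6, every measured member of lists with 8 or fewer measured, otherwise up to 6 called members and the 2 uncalled ones of smallest p, the nearest measured gene on either side of each of the 6, and the 2 probe sets most like each by r. Same-numbered arrays deviated together from their accession means (r of 0.278, 0.376, 0.478 and 0.403), so the replicate number was also fitted as a block. Among replicates 1 and 2, differently numbered arrays did so as much (r of 0.273 and 0.382). Among replicates 3 and 4 they did so less (r of 0.035 and 0.142). Alternatives were constants of 1 and 50, no filter, a minimum of 100, quantile normalization, median centring, an intensity trend, blocks, a 3′ to 5′ covariate and leaving out each array. On simulated data with 15165 probe sets, the accession fit recovered 10.8% of changes of 0.5, 70.8% of changes of 1 and 98% of changes of 2 on the log2 scale. The simulated noise was independent between arrays and probe sets and held no difference between the sets of arrays, unlike the data, so these shares are approximate.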

Additional observations from a re-analysis of the deposited data

Results flagged for a closer look

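In 104 groups of 4 arrays, 1 array was tested for lying far from the other 3 (Dixon's criterion at the 95% level), which chance alone passes in about 1 in 20 groups, and 4 groups did so. AT1G13470 on Cal-0 replicate 2 was at 96.5, against 154.1 to 160.0 on the other Cal-0 arrays. UGT74F1, an SA glucosyltransferase gene under the filter, was at 12.3 on Cal-0 replicate 3 and at 4.1 to 4.9 on the others. AT1G13540, the measured gene nearest to AT1G13470 on one side, was at 9.3 on Col-4 replicate 1 and at 0.3 to 0.5 on the others. AT1G18210, the gene most like SAG101, was at 157.0 on Col-4 replicate 4 and at 225.5 to 241.9 on the others.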

How the results depend on the processing

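The accession differences of the 6 genes kept their direction in all 90 alternative values, and 9 of these moved by more than the replicate spread, all through the added constant. With 1 added they were 0.50 for SAG101, -3.52 for AT1G20030, 3.71 for AT1G13470, 4.84 for AT3G48640 and -6.92 for AT1G76960. With 50 they were -1.82 for AT1G20030, 1.57 for AT1G13470, 1.91 for AT3G48640 and -3.04 for AT1G76960. In the 5 genes without overlap, neither another constant nor leaving out an array could have reversed the direction. The count of 651 probe sets passing between the accessions became 1299 with the replicate block, 1095 with the set of arrays as a block and 406 with a minimum signal of 100, and lay between 412 and 672 when 1 array was left out. With the replicate block, 3 other PR1-family genes, 1 thaumatin-like gene and 1 senescence gene passed, and with the set block 2 PR1-family genes and 1 senescence gene. The block changed no other list count. The count of 1032 between the sets of arrays was 222 without a filter, 378 with 1 added and 0 with the 3′ to 5′ covariate (limma, 1964 at an unadjusted p under 0.05). Leaving out 1 array gave 0 to 844, namely 0 without Col-4 replicate 1 (3183 at an unadjusted p under 0.05), 13 without Cal-0 replicate 2, 129 without Cal-0 replicate 1, 144 without Col-4 replicate 2, 272 without Cal-0 replicate 4, 426 without Col-4 replicate 4 and 476 without Cal-0 replicate 3. For the change of the accession difference between sets, leaving out 1 array gave 0 to 3, with 3 without Col-4 replicate 3. The call of AT1G20030 between sets was lost without a filter (limma adjusted p = 0.0548), where more probe sets were tested.

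Differences that did not pass also changed sign. With the covariate the set difference was 0.28 for AT4G33720, 0.24 for SAG101, -0.44 for AT1G13470 and 0.34 for AT3G48640, and with quantile normalization 0.016 for SAG101. Without 1 array it ran from -0.17 to 0.0035 for SAG101 and from -0.24 to 0.067 for AT3G48640. The change of the accession difference between sets became -0.17 for AT4G33720, -0.17 for SAG101 and 0.60 for AT1G13470 with the covariate. Without 1 array it ran from -0.028 to 0.97 for AT4G33720, from -0.96 to 0.013 for AT1G13470 and from -0.42 to 0.20 for AT3G48640. The causes were not tested. Signals near the Bacillus controls give no order, which limits the differences of AT1G20030, AT1G13470, AT3G48640 and AT1G76960 to their direction. Their size depended on the added constant.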

Other observations

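The jasmonate-responsive defensin genes had signals that spread widely within each accession. PDF1.2 was at 33.6, 42.1, 196.8 and 1.6 in Cal-0 and at 65.8, 41.4, 400.9 and 40.2 in Col-4. PDF1.2b was at 81.4, 66.7, 740.7 and 14.0 in Cal-0 and at 168.4, 49.7, 473.6 and 68.5 in Col-4. Replicate 3 was the brightest array of both genes in both accessions. The genes are close copies, so their probe sets may read each other's transcripts.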
